A study of Mus musculus with 6 samples.

Results

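The ATF4 amino acid response is described here through 34 mouse genes, chosen by name: 20 cytosolic aminoacyl-tRNA synthetases and 14 other genes of the ATF4 programme. All 34 were among the 19386 genes of the authors' deposited table of expression, and all 34 were among the 12082 genes that carried an adjusted p-value there. RNA was sequenced from bone marrow-derived macrophages, cells grown from the marrow of wild-type C57BL/6 mice in medium with 10% supernatant of L929 cells, a fibroblast line that secretes the macrophage growth factor M-CSF, and harvested on day 11. The 6 libraries form 2 groups of 3, from mice exposed to room air and from mice exposed to cigarette smoke, and no other treatment of the cultures is given in the labels. The age and sex of the mice and the length of the exposure are not given in the sources used here, and the smoke was given to the animal, not to the culture. The comparison asks whether that exposure left a difference in these genes after the cells had been grown outside the body.

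ATF4 is a basic leucine zipper transcription factor whose translation increases when the initiation factor eIF2 is phosphorylated by a stress-sensing kinase, such as GCN2 when uncharged tRNA accumulates. It binds composite C/EBP-ATF response elements and induces amino acid transporters, enzymes that make serine, glycine and asparagine, feedback regulators and many of the synthetases, the enzymes that charge tRNAs with their amino acids. In macrophages the same supply routes feed protein and nucleotide synthesis during activation. ATF4 is controlled in large part by translation and protein turnover, which messenger RNA levels do not measure.

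The response element gives the members a sequence feature that can be read without the expression data. RefSeq promoter windows (GRCm38.p6, 250 bases before to 50 after a gene's start) were at hand for 26 of the 34 genes, with Mars listed as Mars1, and were searched on both strands for the core letters of the element, TGATGNAA, which read TTNCATCA on the opposite strand. A match was found for 8 of the 26 genes (30.8%), 5 of 13 synthetases and 3 of 13 other members, against 4.51% of all 27025 genes with a window and 3.97% of all 32851 windows of the same length. The matches are shown as the sequence through which ATF4 is known to act. Genes such as Asns, Chac1 and Trib3 are known as ATF4 targets in part through this element, so the share is not independent of the choice of genes. For the genes shown, matches in 30 bases of the gene's own strand, with the matching letters in capitals, are:
Asns, chr6:7693214-7693243, minus strand: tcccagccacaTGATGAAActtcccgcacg
Chac1, chr2:119351038-119351067, plus strand: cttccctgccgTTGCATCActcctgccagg
Trib3, chr2:152344028-152344057, minus strand: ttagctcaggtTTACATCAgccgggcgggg
Gars, chr6:55037960-55037989, plus strand: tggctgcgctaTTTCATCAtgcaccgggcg
Iars, chr13:49682126-49682155, plus strand: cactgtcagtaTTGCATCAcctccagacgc
Tars, chr15:11399655-11399684, minus strand: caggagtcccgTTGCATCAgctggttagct
Yars, chr4:129189895-129189924, plus strand: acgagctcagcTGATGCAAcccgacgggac

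The letters TTGCATCA were identical in Chac1, Iars and Tars. A match is only a run of letters, and its absence says only that these letters are not in the window. Counted from the RefSeq start, the matches of Trib3, Iars and Yars begin after it, at bases 15, 8 and 4. Those of Chac1, Gars, Asns and Tars begin before it, at bases -193, -30, -23 and -15. No match was found in either window of Psat1 or in that of Atf4, which stand among the genes called higher below. The 100 bases before their starts are shown for comparison:
Psat1, outer start, chr19:15925060-15925159, minus strand: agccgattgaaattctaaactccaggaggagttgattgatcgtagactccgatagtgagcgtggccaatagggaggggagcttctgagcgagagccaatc
Psat1, inner start, chr19:15924623-15924722, minus strand: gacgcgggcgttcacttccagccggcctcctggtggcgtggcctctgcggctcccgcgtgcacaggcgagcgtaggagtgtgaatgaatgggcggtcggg
Atf4, chr15:80255084-80255183, plus strand: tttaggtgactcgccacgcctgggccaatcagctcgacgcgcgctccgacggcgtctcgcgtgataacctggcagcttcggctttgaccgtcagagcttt

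Expression was deposited as group means of counts scaled by size factors (here normalized counts, 3 libraries a group), beside the log2 ratio of smoke over room air (DESeq2's log2 fold change), its standard error and p-values from the authors' DESeq2 fit. No count of a single library was used here, so the depth of each library is unknown, no value per animal can be given, and whether groups overlap in expression cannot be said. The 9 macrophage markers checked, Lyz2 and Csf1r among them, summed to 56291 normalized counts in room air and 56817 after smoke in the authors' deposited table, and none was called. The sum is carried by the abundant genes, and single markers went both ways, with Mrc1 at 3601 and 2196 and Fcgr1 at 537 and 762. Neutrophil, dendritic and B cell markers that were listed stayed at or below 1.02 normalized counts per gene, the T cell gene Cd4 stood at 29.0 and 22.4, and none of the erythroid or mast cell markers was listed. The summed level of 4 stromal markers was 23.4 in room air and 6.30 after smoke, and that of 4 cell cycle genes 7698 and 5699, none of them called. Of the cell cycle genes, Mki67 stood at 4719 and 3178 but Cdk1 at 269 and 300. The part of these differences in the results below was not tested. In bulk RNA, fewer cells that express a gene and less RNA per cell cannot be told apart.

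In the deposited comparison, macrophages of smoke-exposed animals had more messenger RNA for the serine synthesis enzyme Psat1, for the factors Atf4 and Atf5 and for the synthetases of tryptophan and lysine, Wars and Kars. Only the call of Psat1 held once a trend of fold changes with GC content and transcript length, described below, was removed. The 5 of 34 members (14.7%) were called higher at an adjusted p under 0.05 in the authors' deposited table and none was called lower. Among all 12082 genes tested, 7.69% were called, 4.15% higher and 3.53% lower. The fold changes of the called members were small, from 1.24 to 2.23. The log2 fold change was above 0 for 31 of the 34 members, against 49.7% of all genes tested, and its median over the members was 0.34, against 0.00 over all genes tested. Of the 30 members with a mean of at least 50 over the fit's libraries, 27 were above 0, against 50.8% of such genes. Adjusting over all 19373 genes with a p-value left 5 members called, against 3.55% of genes. An unadjusted p under 0.05 was found for 12 members, each with the higher mean after smoke, where 12% of all tested genes had such a p and a higher mean.

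The synthetases and the other members differed in size of change. All 14 other members had a higher mean after smoke, with a median log2 fold change of 0.67 and 3 called (21.4%), while 17 of 20 synthetases did, with a median of 0.25 and 2 called (10%). The 10% called among the synthetases lies near the 7.69% of all genes. Standard errors in the authors' deposited table were larger for the other members, with a median of 0.39 against 0.17 for the synthetases, and several of the larger changes missed the threshold. With the trend removed the medians were 0.38 for the other members, 13 of 14 of them above 0 and 1 called, and 0.20 for the synthetases, with 0 called. On that scale 1.27% of all genes were called and 47.5% were above 0. The difference between the classes was not tested, since their genes are not replicates.

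**Figure D1:**
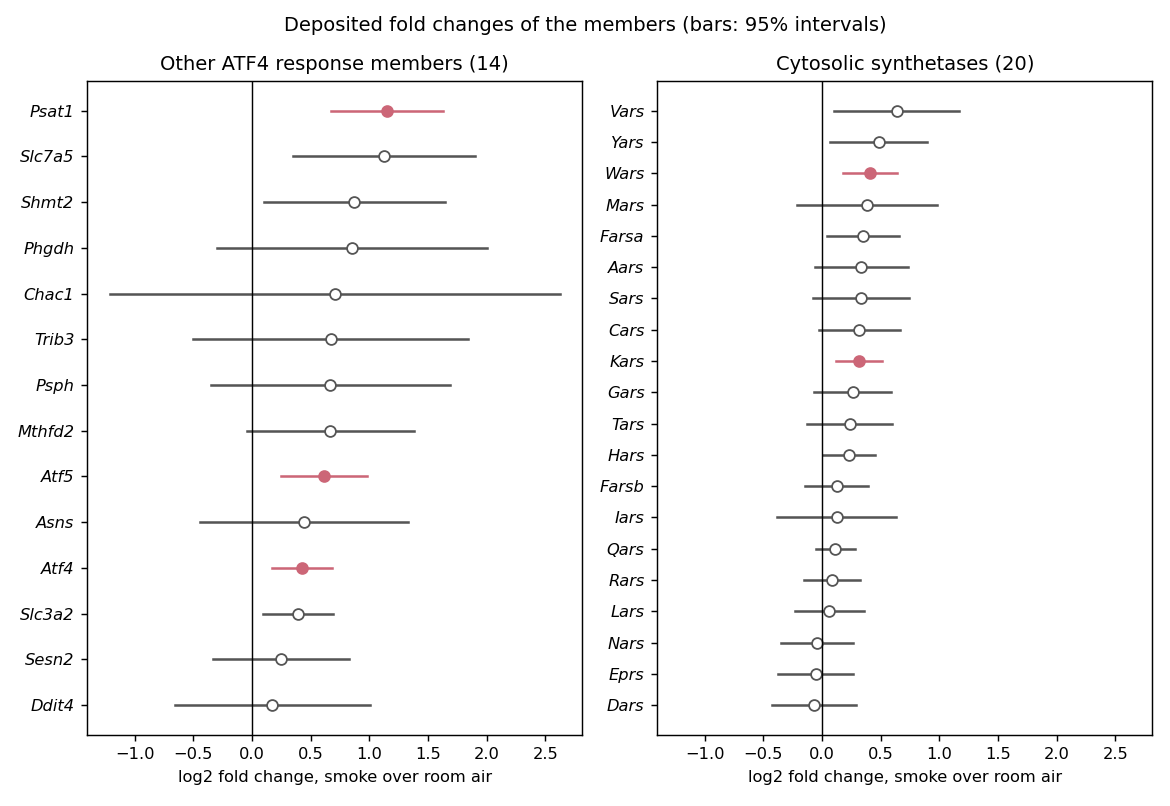
Log2 fold changes of smoke over room air from the authors' deposited table, with 95% intervals computed from the deposited standard errors, for the 14 other ATF4 response members (left) and the 20 synthetases (right). Filled points are the 5 members with an adjusted p under 0.05, and 22 of the 34 intervals include 0.

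Among the transcription factors, Atf4 itself (ENSMUSG00000042406.8, GRCm38 chromosome 15, 80255184 to 80257541, plus strand) had a mean of 661.8 normalized counts in room air and 890.7 after smoke in the authors' deposited table. The authors' deposited table gives a fitted fold of 1.34 for it, or 0.42 as a log2 ratio (SE 0.13, adjusted p 0.0248). Atf5 (ENSMUSG00000038539.15, chromosome 7, 44812256 to 44816658, minus strand), a related factor that shares the translational control of ATF4, rose from 119.2 to 179.9 normalized counts. Its log2 ratio was 0.61 (SE 0.19, adjusted p 0.0226), per the authors' deposited table. Atf5 overlaps Il4i1 and Nup62 on the opposite strand, and since the strand setting of the counting is not given, its reads are uncertain. Both factors were thus higher, and both calls ended once the trend of fold changes with transcript composition, described below, was taken out.

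Serine synthesis and one-carbon metabolism hold 5 members. Psat1 (ENSMUSG00000024640.9, chromosome 19, 15904678 to 15947337, minus strand) encodes phosphoserine aminotransferase, the middle enzyme of the route from glycolysis to serine. Per the authors' deposited table it rose from 142.6 normalized counts in room air to 315.6 after smoke, 2.23-fold or 1.16 as a log2 ratio (SE 0.24, adjusted p 0.000437). By unadjusted p it stood at rank 58 of all genes in the authors' deposited table, and it was the sole member called at an adjusted p under 0.01, where 3.03% of all tested genes were called. With a minimum of 1.5-fold, Psat1 and Atf5 were left, against 3.62% of genes. Psat1 overlaps the predicted gene Gm3329 on the opposite strand.

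The enzymes before and after Psat1 in the route had lower ratios and wider errors. Phgdh, which encodes the first and committed enzyme, had means of 193.1 in room air and 349.7 after smoke in the authors' deposited table, where its log2 ratio was 0.85 (SE 0.59, adjusted p 0.403). An annotated pseudogene, Phgdh-ps1, could share its reads. Psph, which encodes the last enzyme, had low means of 36.4 and 58.2 normalized counts in the authors' deposited table, where its log2 ratio was 0.67 (SE 0.52, adjusted p 0.479). These values neither show a change nor exclude one of the size seen for Psat1, since the 95% interval of Phgdh runs from -0.29 to 2.00 and that of Psph from -0.35 to 1.69.

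Mitochondrial one-carbon metabolism takes its units from serine through SHMT2 and MTHFD2. Shmt2, which encodes the serine hydroxymethyltransferase, had means of 231.6 and 424.0 normalized counts in the authors' deposited table, where its log2 ratio was 0.87 (SE 0.39, adjusted p 0.155). Mthfd2, which encodes the dehydrogenase and cyclohydrolase of the next step, had means of 225.4 and 359.8 there, and a log2 ratio of 0.67 (SE 0.36, adjusted p 0.259). Neither passed the threshold. Reads are also uncertain for Psph, Shmt2 and Slc7a5, which overlap Cct6a, Ndufa4l2 and Gm20388 on the opposite strand, and for Mthfd2, which overlaps Gm43890 on its own. The 5 serine and one-carbon genes together had a median log2 fold change of 0.85, with 1 of 5 called, against 7.69% of all genes.

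Asns, which encodes asparagine synthetase and is the textbook target of ATF4, did not pass the test. Its means were 193.2 normalized counts in room air and 264.3 after smoke in the authors' deposited table, where its log2 ratio was 0.45 (SE 0.45, adjusted p 0.612). The interval from -0.44 to 1.33 holds both no change and a change larger than that of Psat1.

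The 2 transporter genes encode the chains of the large neutral amino acid exchanger: Slc7a5 the LAT1 light chain, which carries leucine and tryptophan into the cell, and Slc3a2 the CD98 heavy chain, which brings it to the membrane. Slc7a5 had means of 74.3 and 163.5 normalized counts in the authors' deposited table, where its log2 ratio was 1.13 (SE 0.40, adjusted p 0.0542), just outside the threshold. When the deposited p-values were adjusted again over the 9025 genes whose mean reached 50 normalized counts, of which 10.7% were then called, that of Slc7a5 fell to 0.0442. Slc3a2, with 854.3 and 1121 normalized counts there, had a log2 ratio of 0.39 (SE 0.15, adjusted p 0.0909). The ratio of means was larger for the light chain than for the abundant heavy chain, and neither gene was called in the deposited table. At an adjusted p under 0.1 both were higher along with the 5 called members, where 6.65% of all genes were higher.

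The feedback and stress genes gave no call. They are Trib3, a pseudokinase that restrains ATF4, Chac1, which degrades glutathione, and Sesn2 and Ddit4, which restrain mTORC1. Their log2 ratios ranged from 0.17 for Ddit4 to 0.71 for Chac1 in the authors' deposited table. With the trend in transcript composition removed, they ranged from -0.15 for Ddit4 to 0.38 for Chac1. The first pair and Ddit4 were thinly covered, with room air means of 9.73 normalized counts for Chac1, 19.9 for Ddit4 and 21.7 for Trib3 in the authors' deposited table. Sesn2, at 206.2 and 247.2 normalized counts, had a log2 ratio of 0.25 (SE 0.29, adjusted p 0.677). It overlaps Gm12981 on its own strand, so its reads are uncertain. The interval of Chac1, the lowest of the 4 in room air, ran from -1.21 to 2.62 and holds both no change and large changes. Which changes could be detected at such levels was not tested.

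**Figure D2:**
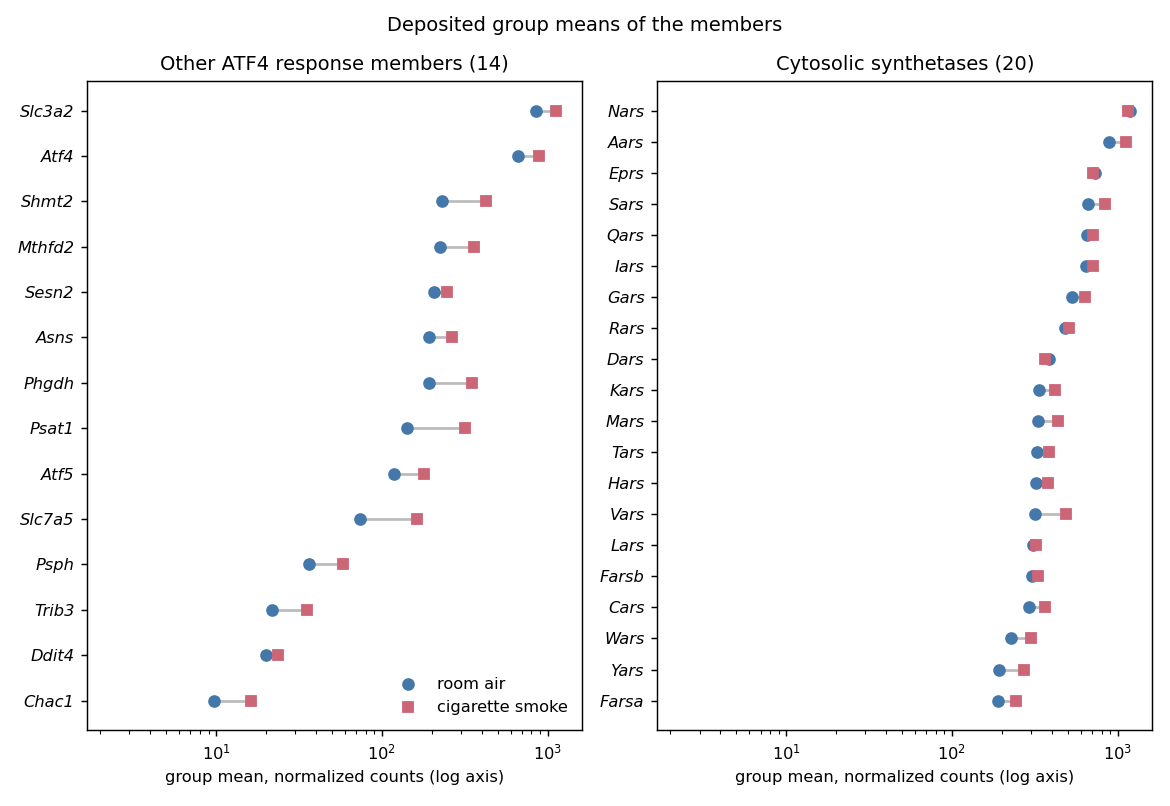
Mean normalized counts of each member in room air (circles) and after cigarette smoke (squares) in the authors' deposited table, on a log axis. The synthetases lie between 188.6 and 1186 in room air, while the other members span 9.73 to 854.3, with Chac1, Ddit4, Trib3 and Psph lowest.

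Among the synthetases, Wars and Kars were called. Wars (ENSMUSG00000021266.16, chromosome 12, 108860030 to 108894174, minus strand) encodes the tryptophanyl-tRNA synthetase, which interferon gamma also induces. The authors' deposited table shows that it rose from 227.4 to 299.6 normalized counts, by a log2 ratio of 0.41 (SE 0.12, adjusted p 0.0142). Wars overlaps the small gene Gm22079 on its strand and Wdr25 and 5033424D13Rik on the other, so its reads are uncertain. Kars (ENSMUSG00000031948.14, chromosome 8, 111993443 to 112011323, minus strand), the lysyl-tRNA synthetase gene, rose from 336.4 to 421.3 normalized counts per the authors' deposited table, by a log2 ratio of 0.32 (SE 0.10, adjusted p 0.0274). An annotated pseudogene, Kars-ps1, could share its reads. Both calls ended with the trend removed (0.28 with adjusted p 0.286 for Wars, and 0.28 with adjusted p 0.144 for Kars, whose fold moved little).

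The largest log2 fold changes of the class belonged to Vars, Yars, Wars and Mars. Vars, for valine, had means of 315.2 and 490.3 normalized counts in the authors' deposited table, where its log2 ratio was 0.63 (SE 0.27, adjusted p 0.129). Yars, for tyrosine, had means of 193.6 and 271.1 and a log2 ratio of 0.48 (SE 0.21, adjusted p 0.141) there. Mars, for methionine, had means of 331.9 and 434.2 there, and a log2 ratio of 0.38 (SE 0.31, adjusted p 0.490). Vars, Yars and Mars thus missed the threshold with larger ratios and larger standard errors than Kars. Mars overlaps Ddit3, another gene of the stress response, on the opposite strand, and reads of the pair are uncertain. Yars overlaps C77080 on the opposite strand, so its reads are uncertain too.

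The other 16 synthetases besides Wars, Vars, Yars and Mars include Kars and 15 genes that were not called. Among the 15, the log2 fold change was highest for Farsa, a subunit of the phenylalanine enzyme, at 0.35 (SE 0.16, adjusted p 0.155). Aars followed at 0.33 (SE 0.20, adjusted p 0.331) as the authors' deposited table lists it. Sars, Cars, Gars, Tars and Hars had values from 0.23 to 0.33 there, and Farsb, Iars, Qars, Rars and Lars from 0.06 to 0.13. Only Nars, Eprs and Dars had lower means after smoke, with log2 fold changes of -0.04, -0.06 and -0.07 in the authors' deposited table. Some values were tight: the 95% interval of Qars, for glutamine, ran from -0.06 to 0.28 and that of Rars, for arginine, from -0.15 to 0.32, both below the value of Psat1. Reads are uncertain for Aars and Farsb, which overlap Exosc6 and 4833412K13Rik on their own strands. Other annotated genes also overlap Farsa, Cars, Sars, Iars and Lars, on the same or the opposite strand.

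A further split was made after the values had been seen. In the cytosol, 8 of the synthetase genes here (Eprs, Iars, Lars, Mars, Qars, Rars, Kars and Dars) encode enzymes of the multisynthetase complex, an assembly on non-enzymatic scaffolds. Their median log2 fold change was 0.10, with 1 called, and that of the 12 genes outside it 0.32, also with 1 called, where 7.69% of all genes were. This is a description with no test, and after the trend in transcript composition was removed the medians were 0.16 and 0.27. Of the 3 scaffold genes, Aimp2 and Eef1e1 rose, at 0.55 (SE 0.18, adjusted p 0.0404) and 0.62 (SE 0.19, adjusted p 0.0281) as log2 ratios of the authors' deposited table. The remaining one, Aimp1, was at -0.11 (SE 0.12, adjusted p 0.636). With the trend removed both calls ended, at 0.26 for Aimp2 (adjusted p 0.674) and 0.66 for Eef1e1 (adjusted p 0.0528). When the deposited p-values were adjusted over all 19373 genes that had one, Aimp2 was no longer called.

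Levels of different genes were compared per kilobase of the longest annotated transcript. In room air, Nars stood highest at 431.9 normalized counts per kilobase, followed by Atf4 at 327.8 and Slc3a2 at 303.7. After smoke the order of the first pair was exchanged, with Atf4 at 441.2 and Nars at 418.9 normalized counts per kilobase. Psat1 moved from place 29 of 34 in room air to place 20 after smoke. Chac1 was lowest in both groups, at 5.94 and 9.91 normalized counts per kilobase. The spread of these levels over animals is not known, so neighbours in the order cannot be told apart.

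The other genes of the pathway were taken from a list of 64 genes by role, of which 62 were in the table and 58 carried an adjusted p. In that list 4 genes were called higher and 2 lower (10.3%, against 7.69% of all genes), and the median log2 fold change over the 58 was 0.09. The 13 tested genes of further amino acid transport and synthesis had a median of 0.50, with 10 above 0 and none called. In that group Aldh1l2, which encodes a mitochondrial folate enzyme, had the largest log2 fold change, 1.90 (SE 0.81, adjusted p 0.128) by the authors' deposited table, from a room air mean of only 9.01 normalized counts. Mthfd1l, of the same mitochondrial folate route, had means of 73.4 and 151.2 in the authors' deposited table, where its log2 ratio was 1.06 (SE 0.38, adjusted p 0.0595).

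Besides the scaffold genes Aimp2 and Eef1e1, the called genes of the list lay in separate roles. Eif4ebp1, an ATF4 target that encodes a repressor of cap-dependent translation, rose by a log2 ratio of 0.69 (SE 0.19, adjusted p 0.00894) as the authors' deposited table gives it. In the same role, of 4 genes tested, Gdf15 had the largest value, 0.75 (SE 0.55, adjusted p 0.450), and was not called. Cebpb, which encodes a C/EBP factor that can pair with ATF4, rose from 50.9 to 115.6 normalized counts there, a log2 ratio of 1.21 (SE 0.34, adjusted p 0.0117). Eif2ak2, which encodes the RNA-activated kinase PKR, fell from 705.4 to 502.5 normalized counts per the authors' deposited table, a log2 ratio of -0.48 (SE 0.14, adjusted p 0.0133). The kinases of the amino acid and endoplasmic reticulum branches, Eif2ak4 and Eif2ak3, named after their values were seen, were not called, at -0.08 (SE 0.12) and -0.18 (SE 0.15) as log2 ratios there. With the trend in transcript composition removed, the calls ended for Eif4ebp1 at 0.60 (adjusted p 0.0777), for Cebpb at 0.67 (0.444) and for Eif2ak2 at -0.32 (0.308). On that scale Gdf15 was at 0.34, below Eif4ebp1. Ddit3, the gene of the stress factor CHOP and likewise named afterwards, was at 0.18 (SE 0.17, adjusted p 0.569) in the deposited values.

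Most mitochondrial synthetases are encoded by nuclear genes of their own, which were set beside the cytosolic ones, while Gars and Kars each encode both the cytosolic and the mitochondrial enzyme. Of 17 tested, 9 had a log2 fold change above 0, against 49.7% of all genes, and the median was 0.00. The call among them, where 7.69% of all genes were called, was Hars2, which was lower at -0.44 (SE 0.15, adjusted p 0.0443) per the authors' deposited table. That call ended with the trend removed (-0.41, adjusted p 0.161) and when p-values were adjusted over all genes with one. Hars2 and Hars overlap on opposite strands, so their reads are uncertain. The 8 genes of amino acid sensing to mTORC1 had a median of -0.14 and no call, and Sesn3, of the same family as Sesn2, had the largest value, -0.83 (SE 0.33, adjusted p 0.0991) by the authors' deposited table.

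**Figure D3:**
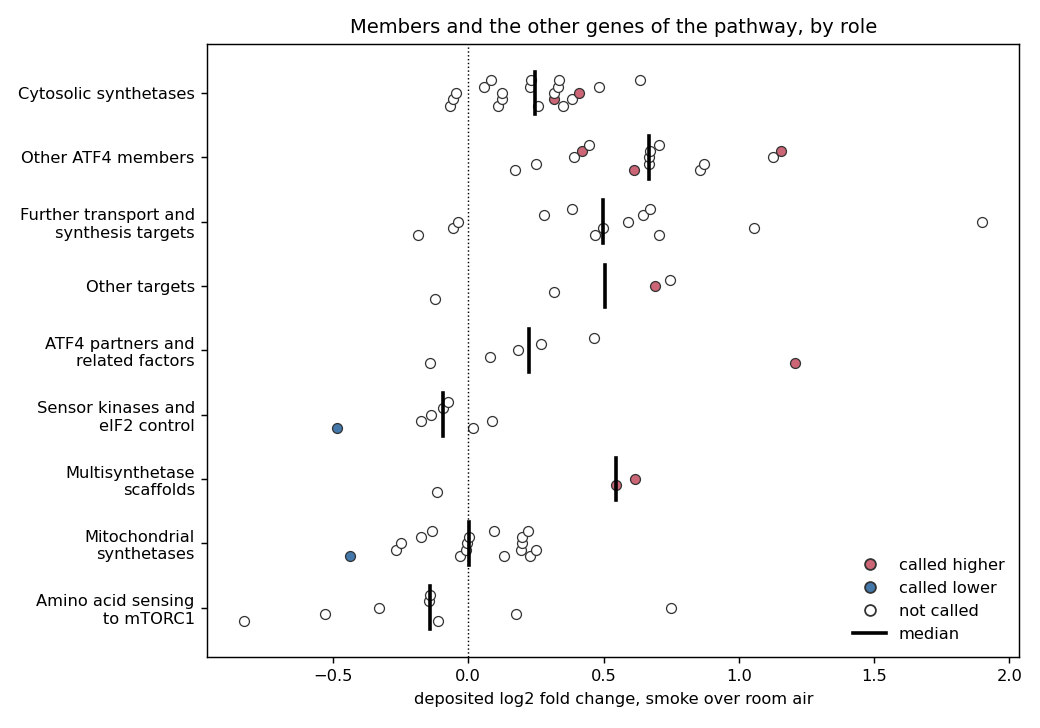
Deposited log2 fold changes of the 34 members and of the 58 tested genes of the pathway list, by role, with the median of each role as a bar. Red points were called higher and blue points lower at an adjusted p under 0.05. The medians lie at 0.25 for the cytosolic synthetases, 0.67 for the other members and 0.00 for the mitochondrial synthetases.

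Fold changes across all genes moved with the composition of the transcripts, and this touches the members. Across 12071 genes, which are not independent, the deposited log2 fold change had a Spearman correlation of 0.483 with GC content and -0.448 with length of the longest transcript. Over the 20 synthetases the correlation with GC content was 0.812, from Dars at 41.2% GC with the lowest fold change to Vars at 60.9% with the highest, and that with length was 0.183. Over the 14 other members, whose median GC content was 56.8% against 49.4% for all genes tested, the correlations were -0.209 with GC content and 0.174 with length. In both classes the sign for length was opposite to that over all genes. Over all 34 members together it was the same, with correlations of -0.253 with length and 0.586 with GC content. These are descriptions over genes of the same libraries.

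A smooth trend in GC content and length was then taken out of all fold changes, after which 1.27% of genes were called, 0.828% higher. Psat1 was the member that stayed past the threshold, with a log2 fold change of 1.11 and an adjusted p of 0.00234. The remaining calls ended: the values became 0.17 for Atf4 (adjusted p 0.709), 0.22 for Atf5 (0.764), 0.28 for Wars (0.286) and 0.28 for Kars (0.144). Of the members, 32 of 34 were above 0 on this scale, against 47.5% of all genes. Eprs and Dars, below 0 in the deposited values, were at 0.17 and 0.0028, while Ddit4 was at -0.15 and Nars at -0.05. Slc7a5 stood at 0.98 (adjusted p 0.243).

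**Figure D4:**
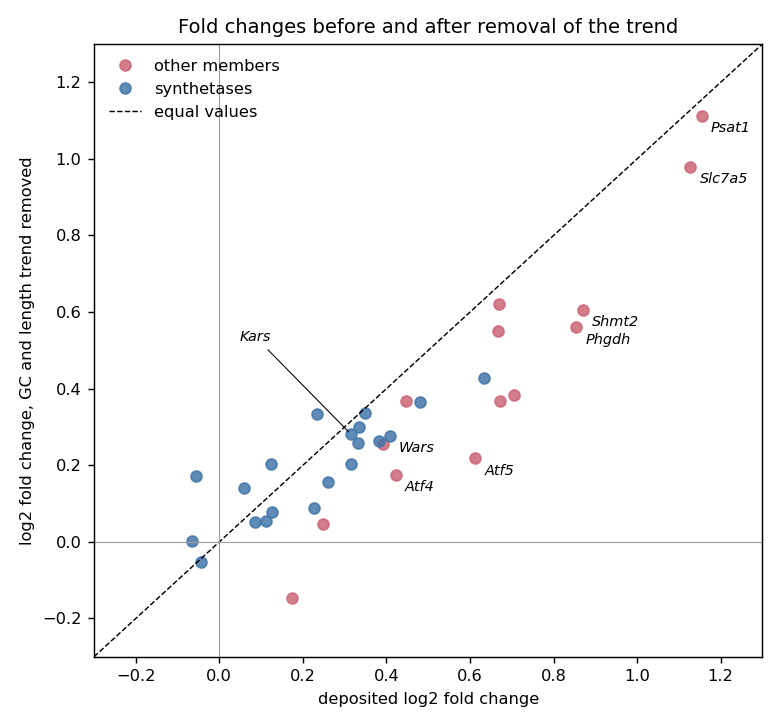
Deposited log2 fold change of each member (horizontal axis) against its value after removal of the trend in transcript GC content and length (vertical axis). Psat1 lies near the line of equal values, at 1.16 and 1.11, while Atf4 and Atf5 drop from 0.42 and 0.61 to 0.17 and 0.22.

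Splicing was the only measurement with a value for each library. JuncBASE, a program that classifies splicing events from junction reads, gave 44 events in 13 of the 34 genes, 11 of them synthetases, as a percent inclusion per library. The events are not independent: 9 came from Farsa, and the 6 of Aars share junctions. The library of cigarette smoke replicate 1 had no value in 20 of the 44 events, and in 4169 of all 10376 events, against at most 398 in any other library. No member event passed an adjusted p of 0.05 in limma, where 0% of all events did. An unadjusted p under 0.05 was found for 4 of the 44 events, against 10.8% of all events. Groups did not overlap in 10 of the 44 events, against 22.8% of all events. Smoke lay below in 6, against 18.3% of all events, and above in 4, against 4.47%. With a pseudocount of 0.1, 2 member events were called, where 2.32% of all events were, with only events of 6 values 1 was, against 0.388%, and on the percent scale 0 were, against 0.0482%.

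The lowest p in a member belonged to an annotated intron of Mars (chromosome 10, 127305858 to 127308257, minus strand). Its retention was 10%, 6.67% and 5.88% in room air replicates 1 to 3 and 0% in all 3 smoke libraries (limma on log2 odds, unadjusted p 0.000269, adjusted p 0.128). The smoke values lie at the floor, so the size of the log2 odds difference depends on the pseudocount. It was -6.33 with a pseudocount of 0.1, -3.17 with 1 and -1.42 with 5. The groups did not overlap, and leaving out cigarette smoke replicate 3 brought the adjusted p to 0.0252, in a fit that called 10.4% of all events. The authors' deposited p for this event was 0.228 (1 after their correction), and over all the alternative limma fits the adjusted p ranged from 0.0125 to 0.609. In Tars, for threonine, the intron from 11388219 to 11388297 of chromosome 15 was retained at 5.88%, 3.57% and 4.65% in room air and at 0% in smoke replicates 2 and 3, with no value in replicate 1 (limma, unadjusted p 0.00360). The same Tars intron was the sole one of 13 member introns past an FDR of 0.05 in rMATS, a program for replicate splicing data, at 0.0142 in the authors' deposited table, where 14.5% of all introns were. None of the 13 passed an FDR of 0.01, as 7.77% of introns did, or 0.05 with at least 10 points, as 4.43% did. Its difference there was 5.6 percentage points of set 1 minus set 2, and which group each set is was not stated.

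A cassette event of Mars gave the third lowest p. Its inclusion was 9.09%, 9.52% and 5% in room air and 27.3% and 18.2% in smoke replicates 2 and 3, with no value in replicate 1 (limma, unadjusted p 0.0339). The smoke values lay above all room air values, on 5 libraries.

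Aars had competing donors in its first intron, a set of junctions between 111033909 and 111036908 on chromosome 8. Use of the most downstream donor was 82.1%, 77.1% and 76.6% in room air and 68.2%, 70.7% and 69.4% after smoke. Use of the most upstream donor was 17.9%, 23.0% and 23.4% in room air and 31.8%, 26.2% and 27.4% after smoke. All smoke values lay below the room air values for the former and above them for the latter, and both rest largely on the same junction reads. In the versions of these events that also count exon reads, the groups overlapped: the downstream donor had 64.3%, 51.7% and 53.1% in room air and 46.2%, 52.2% and 50% after smoke, and the upstream donor 35.7%, 48.3% and 46.9% against 53.9%, 47.8% and 47.2%. Neither junction measure passed in limma (unadjusted p 0.166 and 0.270). These events were chosen for description after their values had been seen.

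Retention of member introns was lower after smoke, as was that of introns in general. The mean level was lower for 14 of 15 member introns, against 89.9% of all 3305, and all smoke values lay below all room air values in 3, against 34.7%. The median difference was -3.75 percentage points for the members and -3.79 for all. Over the 11 member introns with a value in every library, mean retention was 5.20%, 6.55% and 4.67% in room air replicates 1 to 3 and 0.606%, 0.740% and 3.52% in smoke replicates 1 to 3. The smoke libraries lay below the room air libraries, with smoke replicate 3 nearest to them. The same order of libraries held over all 1992 introns with 6 values, at 15.6%, 16.7% and 14.7% in room air and 10.3%, 11.3% and 12.8% after smoke.

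**Figure D5:**
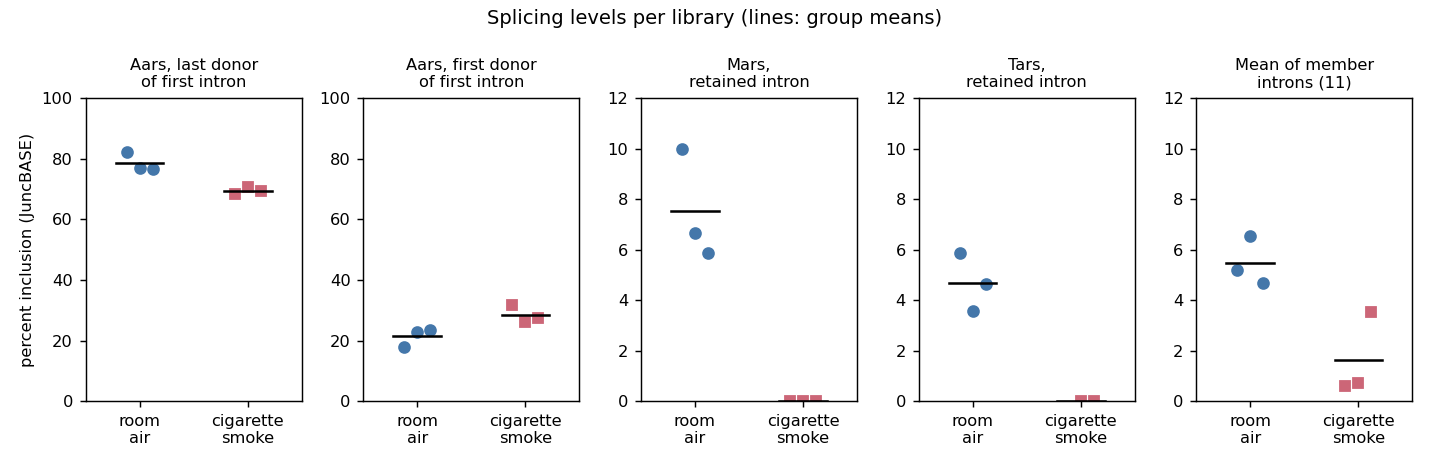
Percent inclusion per library, in room air (circles) and after cigarette smoke (squares), for the 2 Aars donors, the retained introns of Mars and Tars, and the mean of the 11 member introns with 6 values, with lines at the group means. The vertical axis runs to 100% for Aars and to 12% for the introns, where the Mars and Tars values are 0% in each smoke library with a value.

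Expression changes of members with and without a response element match had similar medians, and the difference was not tested. The median deposited log2 fold change was 0.39 for the 8 genes with a match, none of them called, and 0.37 for the 18 genes with a window and no match, of which 4 were called, where 7.69% of all genes were. Of the 5 called members, Psat1, Atf4, Atf5 and Kars had windows without a match, and Wars had no window here.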

How the data were processed

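Total RNA of 6 cultures was made into directional libraries and read on an Illumina instrument, per the labels' protocols. STAR, DESeq2, SAMtools 1.9 and bedtools 2.27.1 and the build mm10 are named in the submitters' processing notes, and the counting program is not given in the sources used here. The signal columns the authors deposited are means of size-factor-normalized counts over 3 libraries per group, per the file headers. The log2 fold changes with standard errors, the Wald scores, and the p-values before and after adjustment were deposited by the authors, from a fit on 24 libraries of which 18 were not used here. The adjusted p was NA for 7291 genes with a p-value, all with a 24-library mean of at most 8.52. The percent inclusion levels were deposited by the authors as JuncBASE output. Differences in the authors' rMATS and JuncBASE tables are other deposited quantities, and 6 per-sample columns of the rMATS table, of unstated groups, were left out.

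Calls are the authors' adjusted p under 0.05. Intervals at 95% came from the deposited standard errors. The trend in GC content and log2 length (longest GENCODE M21 transcript, natural splines with 4 degrees of freedom, weights from the standard errors) was fitted over 12071 genes with statsmodels 0.14.6 and patsy 1.0.2, and each residual was divided by its deposited standard error for a new p-value. On simulated data for those 12071 genes the removal called 94% of the 200 genes given a log2 change of 2, with 12 false calls. The largest deposited log2 fold change of a member was 1.16, so recovery of changes of the members' size was not measured. Inclusion was tested on log2 odds with a pseudocount of 1 percentage point in limma 3.58.1 (R 4.3.3), over all 10376 events, with Benjamini-Hochberg adjustment. On simulated levels for 10376 events limma called 0% of events shifted by 2 log2 odds and 36% of those shifted by 4. No sample was identical to another: at most 2.00% of intermediate levels were equal in any pair. The labels speak of cells from each mouse but tie no library to an animal, so the limma p-values measure the spread between these samples. The deposited expression p-values come from a fit that included other libraries, so they do not measure the spread of these samples alone.

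The members and lists were chosen with earlier results of these data known. Full values were given for called members, for the 4 largest changes per class at a mean of at least 50, and for Atf4 and Asns, and in the pathway list for called genes and the largest change per role. For 1 member with matches to the motif the sequence is not reported here.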

Additional observations from a re-analysis of the deposited data

How the results depend on the processing

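Counts of calls in the deposited comparison depended on the threshold and on the trend in transcript composition. The 5 members called became 1 at an adjusted p under 0.01, 2 with a minimum of 1.5-fold and 1 with the trend removed. The 2 synthetases became 0 under each of these 3 settings, and the 3 other members became 1 at 0.01, 5 at 0.1 and 1 with the trend removed. The 6 genes of the pathway list became 1 at 0.01, 3 with the fold minimum and 0 with the trend removed. Of all genes tested, 7.69% were called in the deposited comparison, 3.03% at 0.01 and 12.8% at 0.1. The share of all genes was 3.62% with the fold minimum and 1.27% with the trend removed. With the trend removed, DESeq2's standard errors were kept. Before adjustment 12 members had a p under 0.05 in the deposited table, against 22.8% of all genes tested. Median fold changes of both classes kept their sign under every scale tried.

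For splicing, the 0 member events became 2 with a pseudocount of 0.1 and 1 with only events of 6 values. In those fits 2.32% and 0.388% of all events were called. The member count ranged from 0 to 3 when single libraries were left out. The 3 came without cigarette smoke replicate 3, in a fit that called 10.4% of all events. The cause was not tested. The fit with the replicate number as a replicate block called 0 member events and 0% of all events, with a lowest adjusted p of 0.609. Same-numbered samples did not deviate together (correlations from -0.09 to 0.02), so the numbers are taken as names. The 1 rMATS intron became 0 at a false discovery rate of 0.01 and 0 with a minimum of 10 percentage points. Of all introns in rMATS, 14.5% passed at 0.05, 7.77% at 0.01 and 4.43% with that minimum. No library could be left out of the expression results, since values per library were not used, and read depth per library is unknown.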
